A study of Mus musculus with 27 samples.

Results

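The genes described here code for proteins of the red cell surface, most of which carry a human blood group or sit beside one that does. They are *Gypc*, *Rhag*, *Rhd*, *Kel*, *Ermap*, *Icam4* and *Cd47*. They were found by symbol, with no threshold on a measured value, and all 7 were found in each of the 5 RNA-Seq tables, which have 14558 genes in common. The study worked in mouse erythroleukaemia (MEL) cells of the C88 clone, an established line blocked at an erythroid progenitor stage that matures when induced. It asked which corepressors hold late erythroid genes at a low level in these cells. RNA-Seq followed the depletion of 4 of them, and ChIP-Seq mapped ETO2 and IRF2BP2. The groups were 2 libraries of cells with a non-targeting short hairpin RNA (shRNA), 2 with *Cbfa2t3* hairpin sh2 and 2 with *Cbfa2t3* hairpin sh3 (*Cbfa2t3* codes for ETO2), 2 control and 2 *Irf2bp2* sh1 libraries, 1 control and 2 *Kdm1a* knockdown (KD) libraries (*Kdm1a* codes for the demethylase LSD1), 2 control and 2 *Gfi1b* KD libraries made with short interfering RNA (siRNA), and 2 libraries of non-induced and 2 of induced MEL cells. Time after shRNA transduction was 72 h and after induction 96 h in the study's legends, while the labels do not say which siRNA or which time a *Gfi1b* library came from. The libraries called wild type in the labels are the controls of the same table. All groups share 1 clonal line, so the p-values measure the spread between libraries of that line, and in such bulk RNA fewer cells of a type and less RNA per cell cannot be told apart.

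Many red cell surface proteins are held in complexes around the anion exchanger band 3 and the ankyrin and protein 4.1 junctions of the membrane skeleton. Glycophorin C (*Gypc*) anchors protein 4.1, the Rh-associated glycoprotein (*Rhag*, an ammonia and gas channel) and the Rh protein (*Rhd*) form the Rh core, and the Kell protein (*Kel*) is a zinc endopeptidase that cleaves big endothelins and is tied to the XK protein. *Ermap* (the Scianna blood group), *Icam4* (the Landsteiner-Wiener blood group, a ligand of integrins) and *Cd47* (the signal that binds SIRPα on macrophages and protects red cells from uptake) belong to the immunoglobulin superfamily. Most of them appear or increase as erythroblasts mature, whereas CD47 is found on nearly all cell types.

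Every one of the 7 genes had a listed ETO2 or IRF2BP2 binding site whose centre lay within 20 kb of its start of transcription, against 31.6% of 22225 protein-coding genes in the annotation and 51.6% of the 9419 with a mean of at least 100 counts in the *Cbfa2t3* table. Within this distance 6 of the 7 had a site that carried ETO2, alone or shared with IRF2BP2, against 18.3% of the 9419 expressed genes. The exception was *Ermap*, whose only site there was bound by IRF2BP2 and not by ETO2. The list gives 1 value per site with no replicate, so no test was made, and the number of ETO2 libraries behind it is not given in the sample labels. The class names used here (ETO2-only, shared, IRF2BP2-only) were matched to the codes of the list by the number of sites in each code, and the list does not say to which antibody the fold of a shared site belongs. Only 3 of the 7 genes had a site within 20 kb when the list was limited to sites at or above its median fold (*Gypc*, *Kel* and *Cd47*), against 19.1% of all protein-coding and 30.9% of the expressed genes.

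The highest fold within 20 kb of any of the 7 genes was at glycophorin C. *Gypc* had 3 shared sites within 20 kb, at 54 bases before its start (19.0-fold over control IgG), at 7898 bases after it (10.7-fold) and at 17472 bases after it (72.3-fold), the last 2 in introns. Another 2 shared sites lay at 21472 bases (19.5-fold) and 35308 bases (29.0-fold) after the start. The median fold of all 2730 shared sites was 10.3. The sites of *Gypc* were all above it, 2 of them beyond 20 kb, but how many shared sites reach such values was not counted. *Rhag* had a shared site 4339 bases before its start (3.46-fold), on an exon of its neighbour *Crisp2*, and an overlapping IRF2BP2-only site 3855 bases before it (7.0-fold), and both lay closer to the start of *Crisp2*. *Rhd* had an ETO2-only site in an intron 5031 bases after its start (7.0-fold) and *Kel* an ETO2-only site over its start, with the centre 16 bases inside the gene (9.0-fold). *Ermap* had its IRF2BP2-only site 698 bases upstream (3.12-fold). *Icam4* had 7 sites within 20 kb, among them a shared site centred 28 bases after its start (6.08-fold), but it lies between *Icam1* and *Icam5*, and 5 of the 7 sites were closer to the start of one of these neighbours. *Cd47* had a shared site 15788 bases upstream (10.0-fold) next to an IRF2BP2-only site (15.8-fold), and a far stronger shared site 55415 bases upstream (51.5-fold).

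The sequences at these sites are shown because ETO2 reaches DNA through the GATA1-TAL1-LDB1 complex, which binds GATA words beside E-boxes. The word AGATAA, its variant AGATAG, the word TGATAA and likewise its variant TGATAG were searched on both strands, together with the composite E-box/GATA motif, every match of which contains such a word. Of the 17 sites within 20 kb of the genes, 15 held a GATA word and 7 the composite motif in the 200 bases around their centre. Over all 13229 listed sites the shares were 59.7 and 15.4%. Near the genes, each of the 3 sites with ETO2 alone held a GATA word and 2 held the motif. Every one of the 6 shared sites held a word and 5 held the motif. Where IRF2BP2 was alone, 6 of 8 sites held a word and 0 the motif. Some sites at *Rhag*, *Icam4* and *Cd47* overlap or abut and were counted separately. Among all listed sites the share with a GATA word was 88.6% for the ETO2-only class (1760 sites), 90.3% for the shared class (2730 sites) and 44.4% for the IRF2BP2-only class (8739 sites). The composite motif was held by 33.9, 32.7 and 6.29% of the same classes. Of the 200 bases before the start of all 22225 protein-coding genes, 20.0% held a GATA word and 1.66% the composite motif. Sequences are from mm9, on the strand of the gene and 5′ to 3′, with the GATA words of either strand in capitals. The *Rhd* window (intron, chr4:134425382-134425581, plus strand, 200 bases centred on the ETO2-only site) held 2 words, the *Kel* window (200 bases just before its start, chr6:41654339-41654538, minus strand) 1 word within a composite motif, the *Ermap* window (intergenic, chr4:118863214-118863413, minus strand, centred on the IRF2BP2-only site) 1 word, and the *Cd47* window (intergenic, chr16:49839843-49840042, plus strand, centred on the shared site) 1 word within a composite motif. At *Rhag* (exon of *Crisp2*, chr17:40943737-40943766, plus strand) and *Icam4* (5′ end of its first exon, chr9:20833826-20833855, plus strand) only 30 bases around the composite motif are given, since the sites lie on exons.
Rhd: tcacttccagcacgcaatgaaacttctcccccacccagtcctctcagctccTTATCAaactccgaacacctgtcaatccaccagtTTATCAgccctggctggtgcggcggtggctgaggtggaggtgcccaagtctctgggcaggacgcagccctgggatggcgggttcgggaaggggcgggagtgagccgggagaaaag
Kel: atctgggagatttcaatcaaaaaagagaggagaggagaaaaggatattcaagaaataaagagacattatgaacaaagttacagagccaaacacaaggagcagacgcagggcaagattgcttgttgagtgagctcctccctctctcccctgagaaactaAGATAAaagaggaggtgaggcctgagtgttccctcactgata
Ermap: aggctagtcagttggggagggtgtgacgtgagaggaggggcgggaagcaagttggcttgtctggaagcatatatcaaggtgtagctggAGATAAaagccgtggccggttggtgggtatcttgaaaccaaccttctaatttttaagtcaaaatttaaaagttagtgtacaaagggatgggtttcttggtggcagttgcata
Cd47: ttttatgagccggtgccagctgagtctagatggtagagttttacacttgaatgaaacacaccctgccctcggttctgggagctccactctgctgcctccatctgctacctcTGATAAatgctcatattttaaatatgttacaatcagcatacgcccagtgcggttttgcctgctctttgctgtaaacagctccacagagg
Rhag: tccacccTTATCTttgaaaagcagcttgaa
Icam4: tgccttcTTATCTcctgcggccagcctaaa
A match in letters is a description and no evidence of binding to that word.

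**Figure D1:**
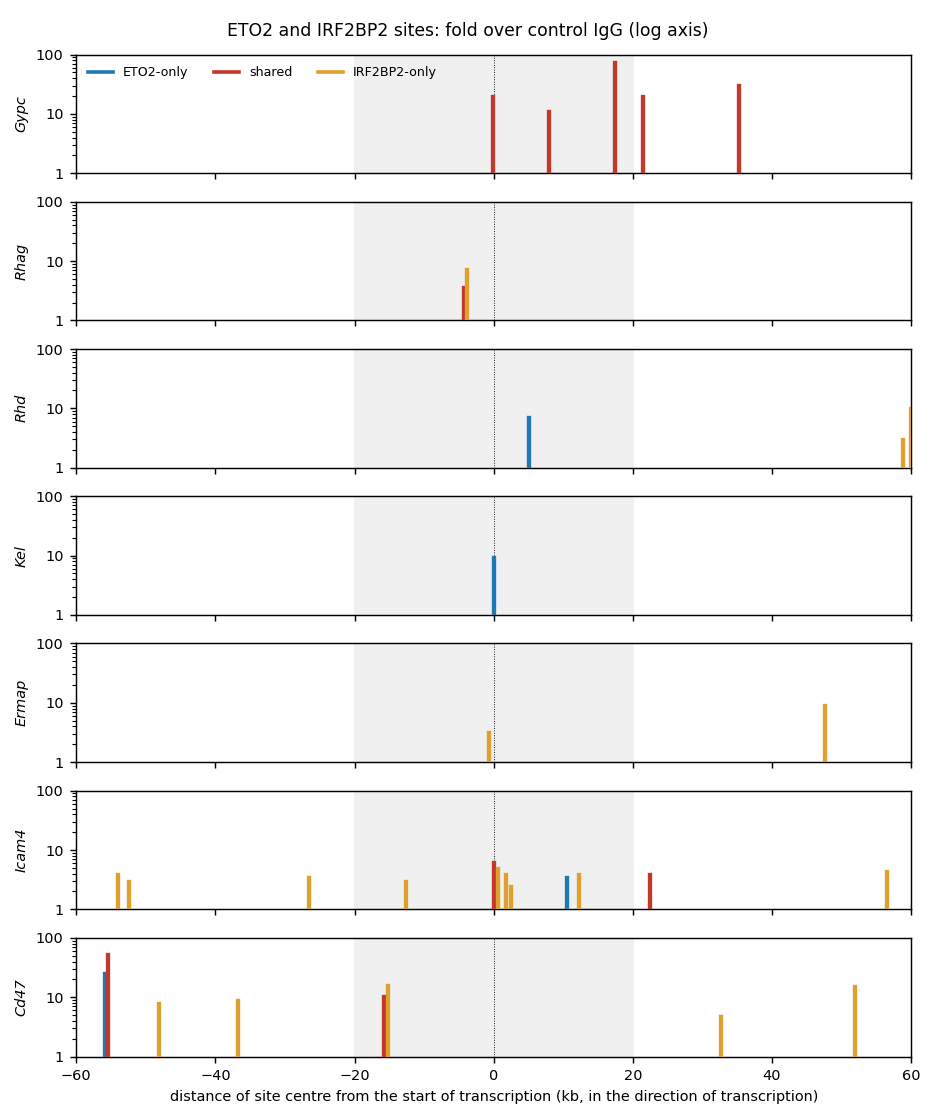
Listed ETO2 and IRF2BP2 sites around the start of transcription of each gene. The horizontal axis is the distance of the site centre in kb in the direction of transcription, the height of a bar is the fold over control IgG on a log axis, the colour is the class and the grey band marks 20 kb on each side. *Gypc* carries 5 shared sites, the highest at 72.3-fold, and *Ermap* has an IRF2BP2-only site just upstream of its start.

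Depth and identity of the libraries were checked before the comparisons. The shRNA libraries held 44519414 to 57684583 counted reads and the *Gfi1b* and induction libraries 9929311 to 19623105, so that 3 counts are at most 0.302 CPM (counts scaled to a common library total, TMM-normalized) and all 7 genes were far above this in every library. The erythroid markers *Gata1*, *Klf1*, *Tal1*, *Epor* and *Nfe2* summed to 812 to 2059 CPM and the myeloid markers to at most 0.424 CPM. Of the megakaryocyte markers, *Itga2b* and *Pf4* were above 50 CPM in every library and *Gp9* and *Gp1bb* stayed below 5 CPM. *Cbfa2t3* RNA was 400.3 and 427 CPM in its controls, 202 and 244 CPM with sh2 and 123 and 145 CPM with sh3, *Irf2bp2* RNA 116 and 119.7 CPM in its controls and 92.2 and 94.9 CPM in the KD, and *Kdm1a* RNA 152 CPM in the control and 16.9 and 16.3 CPM in the KD. *Gfi1b* RNA was 122 and 145 CPM in its controls, 76.5 CPM in *Gfi1b* KD replicate 2, but 216 CPM in the library labelled *Gfi1b* KD replicate 1, which goes against its label. The *Gfi1b* results are therefore given with and without that library.

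In control and non-induced cells all 7 genes were already expressed. Compared per length, by the deposited RPKM over the 9 control libraries, the median was highest for *Icam4* (73.6, range 53.3 to 89.1) and *Ermap* (70.6, range 32.2 to 80.4), followed by *Cd47* (63.6, range 48.8 to 117.3), *Rhag* (59.0, range 29.7 to 79.8), *Gypc* (43.5, range 29.3 to 54.3), *Rhd* (32.1, range 2.72 to 43.9) and *Kel* (13.8, range 3.41 to 15.7). The ranges of neighbours in this order overlap, while the lowest *Icam4* library lay above every library of *Rhd* and *Kel*. *Rhd* varied most between tables. It was at 32.1 to 43.9 RPKM in the 5 shRNA controls, at 2.72 and 3.76 RPKM in the siRNA controls and at 2.91 and 8.07 RPKM in non-induced cells. *Kel* followed with 13.8 to 15.7, then 3.41 and 5.08, then 6.56 and 11.1 RPKM. Each table has its own control libraries. Treatment and depth differ between the shRNA tables and the *Gfi1b* and induction tables, and the time of the *Gfi1b* libraries is not given. These levels are therefore set side by side and not tested.

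**Figure D2:**
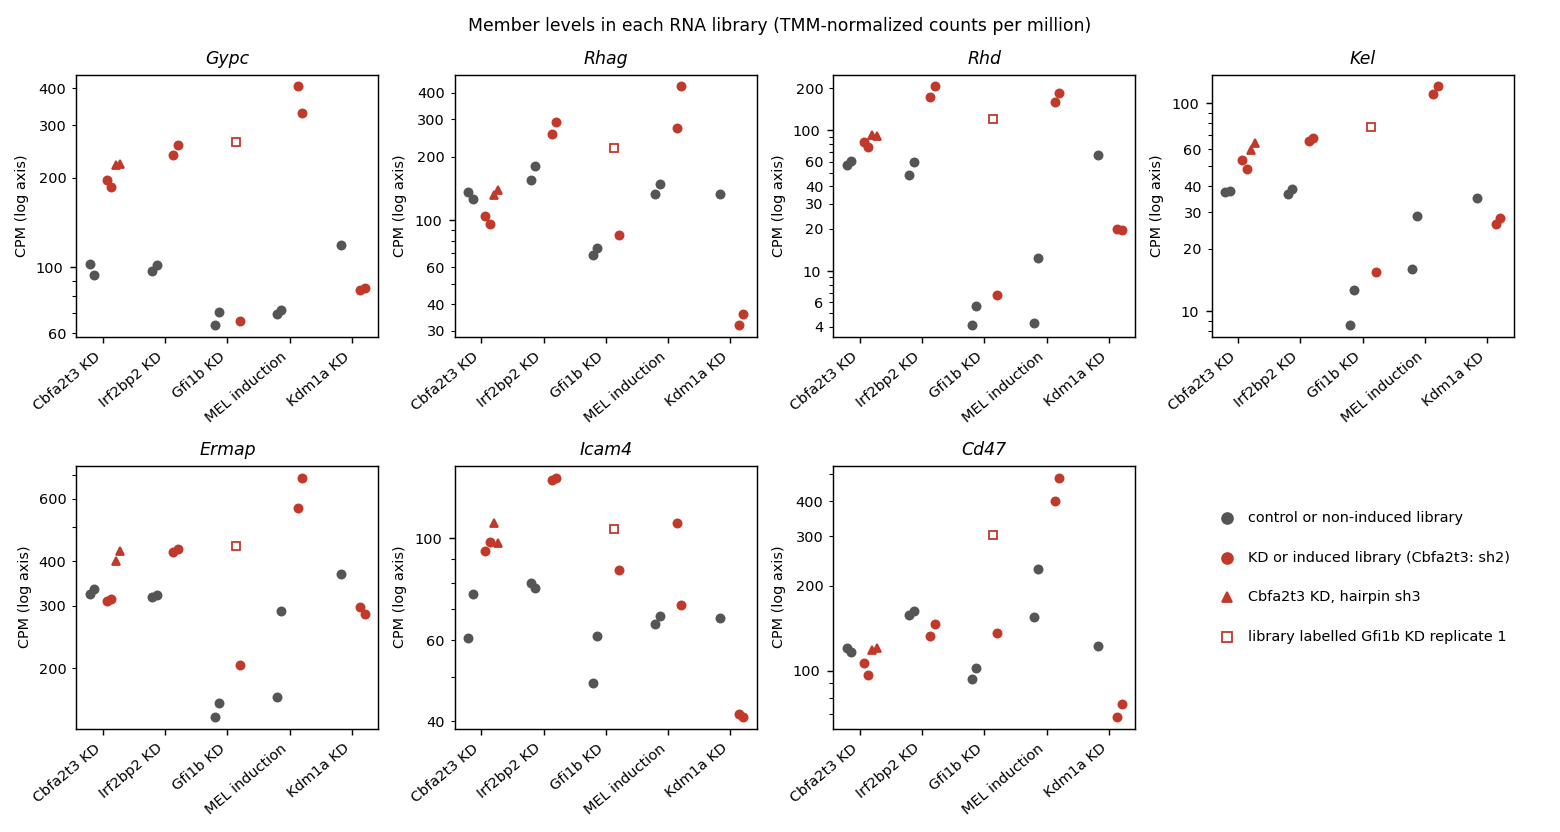
Level of each gene in each of the 21 RNA libraries, in TMM-normalized CPM on a log axis, with controls in grey and KD or induced libraries in red. *Rhd* and *Kel* start lowest in the *Gfi1b* and induction tables, and the library labelled Gfi1b KD replicate 1 (open square) lies above its controls for all 7 genes.

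*Cbfa2t3* KD raised 4 of the 7 surface genes and lowered none. *Gypc* rose 2.09-fold, and *Rhd*, *Kel* and *Icam4* rose by about 1.5-fold, while *Rhag*, *Ermap* and *Cd47* did not pass the test. A call required an adjusted p no higher than 0.05 together with a log2 fold change of at least 0.5 in size. Of 12537 genes tested with edgeR, 5.74% were called, 2.99% as raised and 2.75% as lowered, and 19.1% had all KD libraries above both controls. The median log2 fold change of the 7 was 0.54, against 0.00 over all genes tested.

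*Gypc* was at 103 and 94.4 CPM in the controls, 196 and 187 CPM with sh2 and 221 and 222 CPM with sh3 (log2 fold change 1.06, SE 0.09, adjusted p = 2.35e-04). *Rhd* was at 57.0 and 60.4 CPM in the controls, 82.3 and 76.3 CPM with sh2 and 92.6 and 91.2 CPM with sh3 (0.54, SE 0.09, adjusted p = 0.00543). *Kel* was at 37.4 and 37.7 CPM in the controls, 53.2 and 48.1 CPM with sh2 and 59.3 and 64.2 CPM with sh3 (0.58, SE 0.11, adjusted p = 0.0108). For these 3 genes every KD library lay above both controls, and the sh3 libraries lay above the sh2 libraries. *Icam4*, for which all 4 KD libraries also lay above the controls, was at 60.6 and 75.8 CPM in the controls, 93.8 and 98.3 CPM with sh2 and 108 and 97.9 CPM with sh3 (0.54, SE 0.10, adjusted p = 0.00834). Its counts may include reads of an antisense transcript annotated across it, since the counting was not stated to use strand. *Rhag* was at 136 and 126 CPM in the controls, 104 and 96.4 CPM with sh2 and 132 and 139 CPM with sh3 (-0.15, SE 0.14, adjusted p = 0.553). *Ermap*, the most counted of the genes, was at 324 and 335 CPM in the controls, 309 and 314 CPM with sh2 and 402 and 427 CPM with sh3 (0.14, SE 0.13, adjusted p = 0.556). *Cd47* was at 120.0 and 116 CPM in the controls, 106 and 96.5 CPM with sh2 and 118 and 120.3 CPM with sh3 (-0.10, SE 0.09, adjusted p = 0.545). In these last 3 genes the hairpins fell on different sides of the controls or overlapped them. Without control replicate 1 *Rhd* (adjusted p = 0.102), *Kel* (0.131) and *Icam4* (0.106) no longer passed, and without control replicate 2 *Rhd* (0.0543) and *Kel* (0.112) did not, whereas *Gypc* passed in each case. The erythroid marker sum was 1135 and 1156 CPM in the controls and 1471 to 1556 CPM in the KD libraries, and the megakaryocyte sum 400 and 413 against 474 to 587 CPM, and their part in these changes was not tested.

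The hairpins differed for these genes. The level was higher with sh3 than with sh2 for all 7, and the difference had an adjusted p of 0.05 or less for 6 of them, all but *Icam4*, although none reached the limit of 0.5 that is part of the call. That count fell to 2, *Rhag* and *Ermap*, without sh3 replicate 2 or without sh2 replicate 2, to 3 (with *Kel*) without sh3 replicate 1 or either control, and stayed at 6 without sh2 replicate 1. Over all genes, 13.7% reached this adjusted p at any fold, 7.8% as higher in sh3, and 3.71% were called with the fold limit, 1.92% as higher. The largest differences were in *Rhag* (log2 0.43, SE 0.06, adjusted p = 0.00132) and *Ermap* (0.41, SE 0.06, adjusted p = 0.00107), followed by *Kel* (0.29, adjusted p = 0.0198), *Cd47* (0.23, adjusted p = 0.0273), *Gypc* (0.21, adjusted p = 0.0412) and *Rhd* (0.21, adjusted p = 0.0419). For *Icam4* it was 0.10 (SE 0.09, adjusted p = 0.526). *Rhag*, the partner of the Rh protein, was thus below its controls with sh2 alone (log2 -0.39, adjusted p = 0.00161) and level with them with sh3 alone (0.05, adjusted p = 0.565). *Ermap* differed between the hairpins in the same direction. It was level with its controls with sh2 alone (-0.08, adjusted p = 0.398) and above them with sh3 alone (0.33, adjusted p = 8.54e-04). Against the same controls sh2 alone called 1 of the 7 (*Gypc*), where 7.11% of all genes were called, and sh3 alone called 4, where 9.19% were. *Cbfa2t3* RNA itself was lower with sh3 than with sh2 by a log2 of -0.73 (adjusted p = 7.52e-04).

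**Figure D3:**
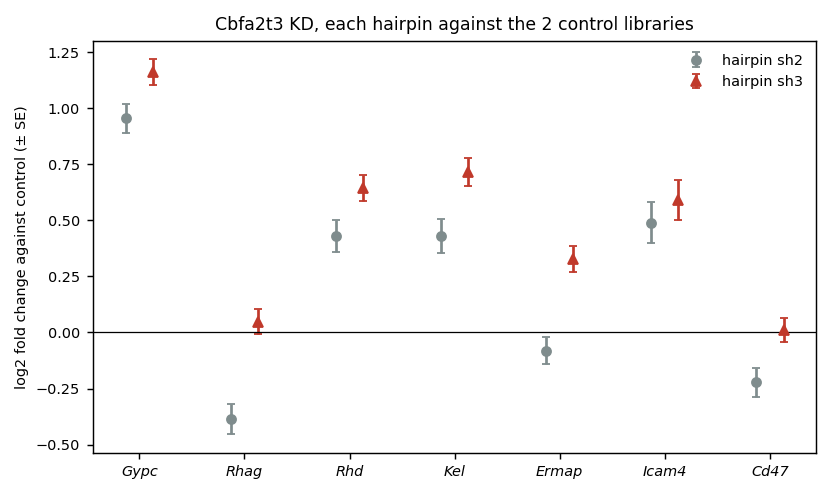
Log2 fold change of each gene with hairpin sh2 (grey circles) and hairpin sh3 (red triangles) against the same 2 control libraries, with bars of 1 SE. The sh3 value is the higher of the pair for every gene, and *Rhag*, *Ermap* and *Cd47* sit around 0.

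*Irf2bp2* KD raised 5 of the 7 genes and lowered none, with the largest change in *Rhd* (3.54-fold), the next in *Gypc* (2.49-fold), and rises of 1.64 to 1.79-fold in *Kel*, *Icam4* and *Rhag*. *Ermap* was higher by less than the limit, and *Cd47* alone lay below its controls. The RNA of the target, *Irf2bp2*, was only 1.26-fold lower in the KD (log2 -0.33, adjusted p = 0.00266). It missed the fold limit and was not called. The test called 22.5% of 12329 genes changed, 10.1% raised and 12.5% lowered. The median log2 fold change of the 7 was 0.77 and that of all genes -0.01.

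*Gypc* was at 97.3 and 102 CPM in the controls and 239 and 257 CPM in the KD (log2 fold change 1.32, SE 0.08, adjusted p = 2.43e-09). *Rhag* was at 154 and 181 CPM in the controls and 256 and 293 CPM in the KD (0.71, SE 0.10, adjusted p = 1.54e-05). *Rhd* was at 48.1 and 59.3 CPM in the controls and 174 and 206 CPM in the KD (1.82, SE 0.11, adjusted p = 7.62e-10). Both genes of the Rh core were raised, with the KD libraries above the controls. *Kel* was at 36.5 and 38.7 CPM in the controls and 66.1 and 68.4 CPM in the KD (0.84, SE 0.08, adjusted p = 4.64e-07). *Icam4* was at 80.0 and 77.8 CPM in the controls and 134 and 135 CPM in the KD (0.77, SE 0.08, adjusted p = 7.56e-07). *Ermap* was at 318 and 321 CPM in the controls and 424 and 432 CPM in the KD (0.42, SE 0.08, adjusted p = 5.82e-04), so that it missed only the fold limit. *Cd47* was at 157 and 162 CPM in the controls and 133 and 146 CPM in the KD (-0.20, SE 0.08, adjusted p = 0.0626). Thus 6 of the 7 genes had both KD libraries above both controls, where 36.7% of all genes did, and *Cd47* had both below, as 37.4% did. The erythroid marker sum was 944 and 1018 CPM in the controls and 1805 and 1845 CPM in the KD, and that of the megakaryocyte markers 365 and 416 against 776 and 807 CPM, and their part was not tested.

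Whether the effects of the knockdowns differ was tested directly in a joint fit of the *Cbfa2t3*, *Irf2bp2* and *Gfi1b* tables. None of the 7 genes differed between *Cbfa2t3* and *Irf2bp2* KD in that fit, in which 3.14% of 13164 genes did. The log2 change in *Cbfa2t3* KD less that in *Irf2bp2* KD was -1.28 for *Rhd* (SE 0.88, adjusted p = 0.519) and -0.86 for *Rhag* (SE 0.39, adjusted p = 0.279). When only the *Cbfa2t3* and *Irf2bp2* tables were fitted, a choice made after seeing the data, *Rhd* (-1.29, SE 0.16, adjusted p = 2.03e-04) and *Rhag* (-0.87, SE 0.20, adjusted p = 0.00870) differed and the other 5 genes, at -0.29 to 0.09, did not pass (adjusted p of 0.140 to 0.645), with 14.5% of 12653 genes called.

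The *Gfi1b* table called none of the 7 genes and no gene at all by edgeR with the filter on low counts, while 784 genes had an unadjusted p below 0.05 and DESeq2 called 47. The background with the filter was 0% of 11190 genes. With no filter edgeR called 411 of 17067 genes (2.41%), among them 6 of the 7, all but *Icam4*. All 7 log2 fold changes were above 0, from 0.79 for *Icam4* to 3.72 for *Rhd*, with adjusted p of 0.690 to 0.699. The KD libraries did not resemble each other, and the high values came from the library labelled *Gfi1b* KD replicate 1.

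*Gypc* was at 63.9 and 70.8 CPM in the controls, 264 CPM in the library labelled *Gfi1b* KD replicate 1 and 66.3 CPM in replicate 2 (log2 fold change 1.30, SE 0.56). *Rhag* was at 68.7 and 74.2 CPM in the controls and 221 and 84.8 CPM in those libraries, in the same order (1.10, SE 0.42). *Rhd* was at 4.11 and 5.64 CPM in the controls and 121 and 6.71 CPM (3.72, SE 1.15). For *Gypc* replicate 2 lay between the controls, and for the Rh genes just above them. *Kel* was at 8.57 and 12.7 CPM in the controls and 76.8 and 15.5 CPM (2.13, SE 0.69). *Ermap* was at 146 and 160.0 CPM in the controls and 440.0 and 204 CPM (1.07, SE 0.35). *Icam4* was at 48.3 and 61.4 CPM in the controls and 105 and 85.4 CPM (0.79, SE 0.24). *Icam4* was the gene in which the KD libraries came closest to each other. *Cd47* was at 93.4 and 102 CPM in the controls and 304 and 136 CPM (1.17, SE 0.37). In 6 of the 7 genes both KD libraries lay above both controls, as 19.7% of all genes did (19.6% had both below). Without the library labelled *Gfi1b* KD replicate 1, *Icam4* was called (0.64, adjusted p = 0.0227) among 396 of 11381 genes (3.48%), *Gypc* was at -0.02 and the remaining 5 were at 0.25 to 0.55 and not called. In such a fit the KD arm is 1 library, the spread comes from the 2 controls and the lone library is assumed to vary like them. Without replicate 2 instead, under the same assumption, which leaves the library whose *Gfi1b* RNA was high, all 7 were past the limits among 3148 of 11802 genes (26.7%). The megakaryocyte sum was 884 CPM in the library labelled *Gfi1b* KD replicate 1 and 173 to 285 CPM in the other 3, and the erythroid sum 1664 CPM against 948 to 1034 CPM, and their part was not tested.

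**Figure D4:**
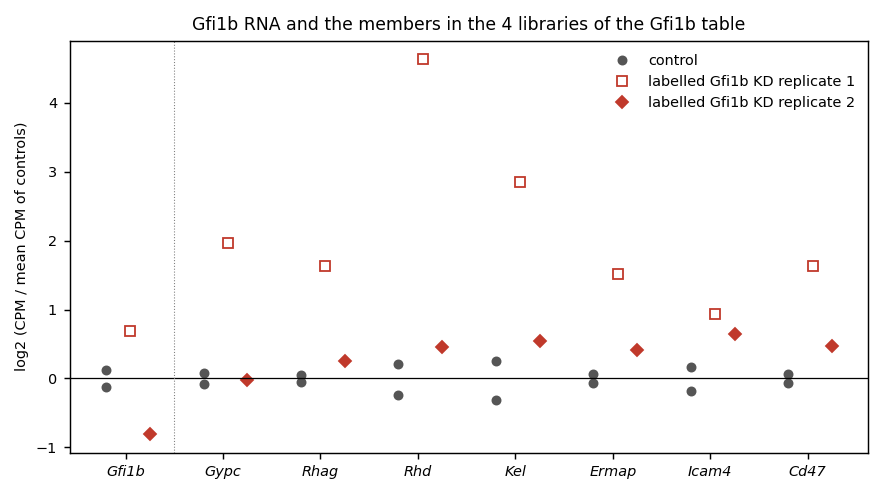
*Gfi1b* RNA and the 7 genes in the 4 libraries of the *Gfi1b* table, as log2 of CPM over the mean CPM of the 2 controls. In the library labelled Gfi1b KD replicate 1 (open squares) *Gfi1b* RNA lies above its controls and *Rhd* is 24.7 times the control mean, while in replicate 2 (filled diamonds) *Rhd* is 1.38 times it.

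For *Cd47* the effects were compared with those in the *Gfi1b* table. Its change in *Irf2bp2* KD less that in *Gfi1b* KD was a log2 of -1.29 (SE 0.34, adjusted p = 0.0263), 1 call among the 7 genes where 13.3% of all genes were called, a share near that background, and without the library labelled *Gfi1b* KD replicate 1 it was -0.64 (adjusted p = 0.00982). The change in *Cbfa2t3* KD less that in *Gfi1b* KD was -1.19 (SE 0.31, adjusted p = 0.0517), and 4.38% of genes were called there. Without that library it was -0.55 (adjusted p = 0.0288). For *Gypc*, the difference of *Cbfa2t3* KD from *Gfi1b* KD went from -0.14 to 1.11 (adjusted p = 5.36e-04) without that library. For *Rhd*, the difference of *Irf2bp2* KD from *Gfi1b* KD went from -1.82 to 1.36 (adjusted p = 0.00461). Both turned sign with 1 library. For *Gypc*, the difference of *Irf2bp2* KD from *Gfi1b* KD went from 0.11 (adjusted p = 0.912) to 1.37 (adjusted p = 4.80e-05) without it.

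*Kdm1a* KD went the other way. All 7 genes were lower in both KD libraries than in the control library, as 44.3% of 12628 genes were (44.5% were higher in both), and 4 of the 7 were past a log2 of 0.5 downwards in both. Of all genes 22.9% were past it, 9.8% as lower and 13.1% as higher. With 1 control library no test was made for these values. An edgeR fit that takes its spread from the 2 KD libraries alone, and so assumes that the control varies like them, put the same 4 genes and 22.5% of all genes past its limits. Its p-values hold no spread between controls and are not given. *Rhag* was at 133 CPM in the control and 31.8 and 36.2 CPM in the KD (log2 -2.06 and -1.88). *Rhd* was at 66.9 CPM in the control and 19.8 and 19.5 CPM in the KD (-1.75 and -1.77). The Rh core was thus lowest of the 7 relative to its control, at 3.91-fold and 3.40-fold lower. *Cd47* was at 123 CPM in the control and 68.6 and 76.2 CPM in the KD (-0.84 and -0.68). *Icam4* was at 67.2 CPM in the control and 41.4 and 40.9 CPM in the KD (-0.70 and -0.71). *Gypc* was at 119 CPM in the control and 84.0 and 85.3 CPM in the KD (-0.51 and -0.48), so that 1 of the libraries missed the limit. *Kel* was at 35 CPM in the control and 26.4 and 28.1 CPM in the KD (-0.40 and -0.32), and *Ermap* at 368 CPM and 298 and 284 CPM (-0.31 and -0.38). The median of the 7 was -0.71 and that of all genes 0.00. The erythroid marker sum was 1119 CPM in the control and 850 and 852 CPM in the KD, and its part was not tested.

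Induction for 96 h raised 6 of the 7 genes, all but *Icam4*. *Rhd* rose 21-fold, *Gypc* and *Kel* 5.20-fold, and *Ermap*, *Rhag* and *Cd47* 2.30 to 2.73-fold. The test called 27.2% of 11713 genes changed, 12.4% raised and 14.8% lowered, and the median log2 fold change was 1.45 for the 7 genes and -0.02 for all.

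*Gypc* was at 69.8 and 71.7 CPM in non-induced and 405 and 331 CPM in induced cells (log2 fold change 2.38, SE 0.25, adjusted p = 3.54e-05). *Rhag* was at 133 and 149 CPM and then 272 and 429 CPM (1.31, SE 0.27, adjusted p = 0.00323). *Rhd* was at 4.28 and 12.4 CPM and then 159 and 184 CPM (4.39, SE 0.41, adjusted p = 1.12e-05). The non-induced libraries differed for *Rhd*, yet the lowest induced library was far above the highest of them. The log2 fold change of *Rhd* was 3.77 without non-induced replicate 1, a rise of 13.7-fold, and 5.32 without non-induced replicate 2, and the gene was called in each case. *Kel* was at 16 and 28.6 CPM and then 110.5 and 120.3 CPM (2.38, SE 0.30, adjusted p = 1.31e-04). *Ermap* was at 167 and 291 CPM and then 563 and 686 CPM (1.45, SE 0.28, adjusted p = 0.00264). *Cd47* was at 156 and 229 CPM and then 400.3 and 485 CPM (1.20, SE 0.26, adjusted p = 0.00461). For *Cd47* the adjusted p was 0.0509 without non-induced replicate 1. *Icam4* was at 65.2 and 67.7 CPM and then 108 and 71.8 CPM (0.43, SE 0.26, adjusted p = 0.229), so that 1 induced library was close to the non-induced cells and the other was not. All 7 genes had both induced libraries above both non-induced libraries, as 32.8% of all genes did (34.5% had both below). The erythroid marker sum was 812 and 1056 CPM before and 1951 and 2059 CPM after induction, and the megakaryocyte sum 376 and 518 against 1158 and 1288 CPM, and their part was not tested.

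**Figure D5:**
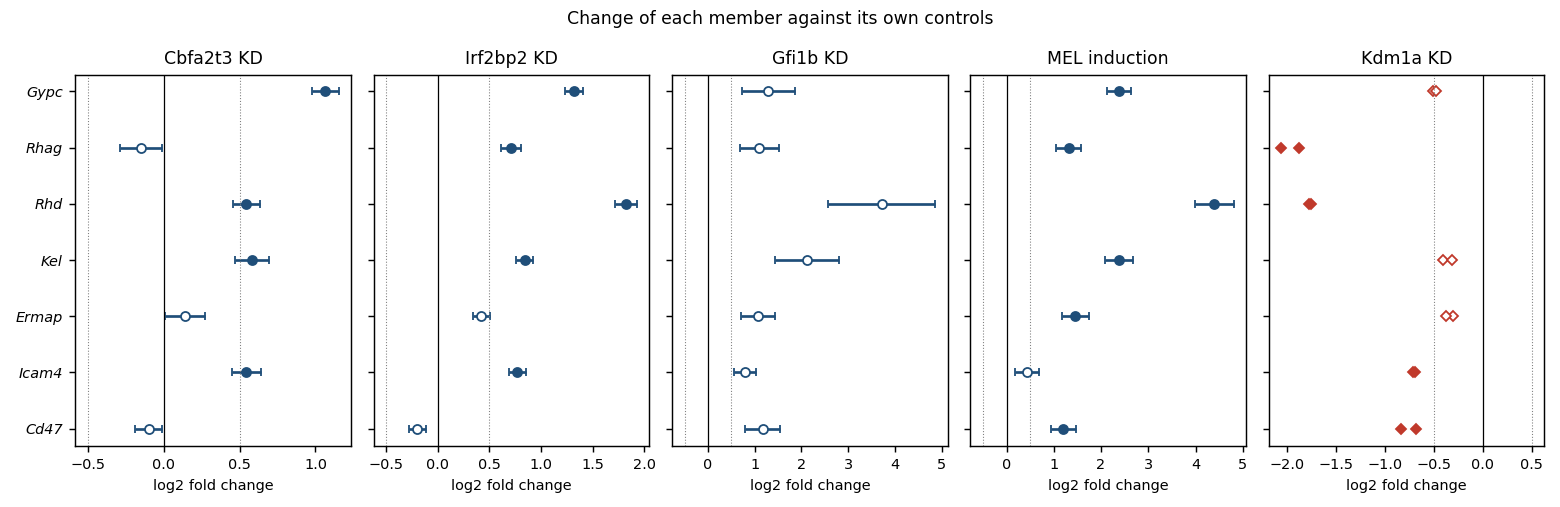
Log2 fold change of each gene against its own controls in the 5 comparisons, each panel with its own horizontal scale. Circles are edgeR estimates with bars of 1 SE and are filled where the gene was called, diamonds are the 2 *Kdm1a* KD libraries against the single control, filled where both are past the fold limit, and dotted lines mark that limit. *Cd47* is filled as raised in the induction panel, and all genes lie left of 0 in *Kdm1a* KD.

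Side by side, *Gypc*, *Rhd* and *Kel* were called raised in *Cbfa2t3* KD, in *Irf2bp2* KD and in induction. *Icam4* was called in both of these knockdowns and not in induction, *Rhag* in *Irf2bp2* KD and induction, and *Ermap* and *Cd47* in induction. Whether induction differs from a knockdown for a gene was not tested, and the comparisons have separate control libraries. Over all 21 libraries, expressed as log2 distance from the control mean of the same table, the highest Pearson correlations among the 7 were between *Kel* and *Ermap* and between *Rhd* and *Kel* (both 0.972), and the lowest between *Icam4* and *Cd47* (0.511). These are descriptions over libraries that share tables and controls. Without the library labelled *Gfi1b* KD replicate 1 the same pairs were at 0.966, 0.967 and 0.400. Among 11053 genes the 3 most like *Gypc* were *Tspan33* (0.988), *Smox* (0.986) and *Suv420h2* (0.985). The nearest to *Rhd* was the joined row of *Hbb-b2* and *Hbb-bt* (0.984), which code for adult beta globins, ahead of *BC021767* (0.982) and *Cgn* (0.981). *Kel* had *Cgn* (0.990), *BC021767* (0.989) and *Uba7* (0.981) closest, and *Ermap* had *Serinc5* (0.980), the membrane protein gene *Stom* (0.978) and *Kel* itself. The most like *Rhag* were *Rab3d* (0.972), *Dpy19l1* (0.957) and *Adam10* (0.953), and the most like *Cd47* were *Socs4* (0.963), *Trim2* (0.958) and *AW146154* (0.953). For *Icam4*, *Smim1* (0.901) and *Cachd1* (0.885) were among the closest.

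The membrane partners of these proteins were followed in the same fits. Of 6 partner genes, 3 were raised in *Cbfa2t3* KD, 4 in *Irf2bp2* KD and 5 in induction, none was lowered there, and 3 were past the limit downwards in *Kdm1a* KD. Of all genes, 2.99, 10.1 and 12.4% were raised in the former 3 comparisons and 9.8% were past the limit downwards in *Kdm1a* KD. *Slc4a1* (band 3) had log2 fold changes of 3.93, 5.13 and 7.23 in the first 3 of these, *Epb4.2* (protein 4.2) 2.34, 2.88 and 4.51, and *Ank1* (ankyrin) 0.52, 1.31 and 1.73, all called (adjusted p at most 0.00525). *Epb4.1* (protein 4.1, which glycophorin C holds) was at 0.34 in *Cbfa2t3* KD, under the fold limit, and was raised by 0.68 in *Irf2bp2* KD and 1.10 in induction. *Xk*, the partner of Kell, was raised in induction (1.04, adjusted p = 0.00961) and was at 0.18 and 0.44 in the knockdowns. *Mpp1* (the palmitoylated partner of glycophorin C) was called in none, at -0.24, -0.44 and 0.02. In *Kdm1a* KD *Slc4a1* was at a log2 of -3.01 and -2.79, *Epb4.2* at -3.42 and -3.25 and *Ank1* at -0.75 and -0.85, while *Epb4.1*, *Xk* and *Mpp1* were within 0.5. In the *Gfi1b* table none of the 5 partners tested was called, and *Slc4a1*, which did not pass the count filter, was at 0 CPM in both controls, 32.7 CPM in the library labelled *Gfi1b* KD replicate 1 and 0.680 CPM in replicate 2. Without that library none of the 5 was called either.

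Other blood group carriers moved in both directions. Of 28 listed genes, 19 were tested in *Cbfa2t3* KD, with 4 raised and 2 lowered, where 5.74% of all genes were called. The largest rises there were in *Art4* (Dombrock, log2 2.55) and *Abcg2* (Junior, 1.90) and the falls in *Emp3* (-0.83) and *Cd44* (Indian, -0.58). In *Irf2bp2* KD 6 of 18 were raised and 2 lowered (22.5% of all genes called), led by *Abcg2* (1.63) and *Art4* (1.43), with *Cd55* (Cromer, -0.85) and *Cd44* (-0.82) lowered. In induction 6 of 19 were raised and 2 lowered (27.2% of all genes called), led by *Abcg2* (3.35) and *Ache* (acetylcholinesterase, the Yt antigen, 3.17), with *Cd44* (-1.88) and *Emp3* (-1.19) lowered. In *Kdm1a* KD 4 of 19 were past the limit, all downwards, where 22.9% of all genes were past it in either direction and 9.8% downwards, and in the *Gfi1b* table none of 19 was called, or 1 of 18 (*Cd55*, higher) without the library labelled *Gfi1b* KD replicate 1, where 3.48% of all genes were. *Cd44* was thus called lowered in all 3 comparisons that raised the surface genes. The carriers' median log2 fold change was 0.10, 0.31 and 0.44 in these 3, below that of the 7 genes in each.

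Relatives and ligands of the 7 proteins were called 0, 2 and 4 times of 9 in *Cbfa2t3* KD, *Irf2bp2* KD and induction, where 5.74, 22.5 and 27.2% of all genes were. Of the 9 tested in *Cbfa2t3* KD none was called, and in *Irf2bp2* KD *Itgav*, the integrin chain that binds ICAM4, was raised (0.61) and *Itgal*, the leukocyte integrin chain, was lowered (-1.75). In induction *Btn1a1* (a butyrophilin like ERMAP, 2.85) and *Itgav* (1.31) were raised and *Icam2* (-2.21) and *Itgal* (-1.68) were lowered, of 9 tested. None of 8 was called in the *Gfi1b* table, with or without the library labelled *Gfi1b* KD replicate 1, and none of 9 was past the limit in *Kdm1a* KD.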

How the data were processed

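RNA-Seq of 21 MEL libraries and 1 list of ETO2 and IRF2BP2 sites were used. The authors mapped reads to mm9 with TopHat2, counted them per RefSeq gene with rpkmforgenes and deposited raw read counts and RPKM per library. The deposited tables also hold the authors' DESeq2 log2 fold changes and p-values, which were not used. The site list gives the authors' fold (ratio of ChIP to IgG) and adjusted p-value. Its 4 read columns were not used.

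Counts were tested within each table with edgeR 4.0.16 in R 4.3.3 (TMM, filterByExpr, quasi-likelihood), tested on simulated data, and adjusted by Benjamini-Hochberg over all genes kept. CPM are TMM-normalized. *Kdm1a* KD ratios used a prior count of 2. DESeq2 1.42.0, other filters, a replicate block, single hairpins and leaving out each library were alternatives. Sites were placed on mm9 with GENCODE annotation. The genes and lists were chosen with earlier results of these data known. All 7 genes and 6 partners are named. From the other lists the 2 largest rises and 2 largest falls called are named per replicated comparison, which leaves out *Kdm1a* KD. The 3 genes most like each gene are named by Pearson correlation, and some items are not reported here. Counting intervals and floors cover counting error only.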

Additional observations from a re-analysis of the deposited data

Results flagged for a closer look

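For 6 of the 7 genes the change with *Cbfa2t3* hairpin sh3 differed from that with sh2 by the test of the difference itself. The limit here was an adjusted p of 0.05 at any fold, which 13.7% of all genes reached, 7.8% as higher in sh3. The log2 difference, sh3 less sh2, was 0.21 for *Gypc*, 0.43 for *Rhag*, 0.21 for *Rhd*, 0.29 for *Kel*, 0.41 for *Ermap* and 0.23 for *Cd47*, with sh3 higher in each, and none was past the fold limit of 0.5. Only *Rhag* and *Ermap* kept an adjusted p of 0.05 or less on omission of any single library, and the count was 2 without sh3 replicate 2 or sh2 replicate 2.

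The effect on *Cd47* differed between *Irf2bp2* KD and *Gfi1b* KD, by a log2 of -1.29 in the joint fit of 3 tables and by -0.64 without the library labelled *Gfi1b* KD replicate 1. That is 1 of 7 genes where 13.3% of all genes were called. In the fit of the *Cbfa2t3* and *Irf2bp2* tables alone, chosen after seeing the data, the effect of *Cbfa2t3* KD less that of *Irf2bp2* KD was -0.87 for *Rhag* and -1.29 for *Rhd*. That fit called 14.5% of all genes. Neither gene was called in the joint edgeR fit of 3 tables (adjusted p of 0.279 for *Rhag* and 0.519 for *Rhd*).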

How the results depend on the processing

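*Cbfa2t3* KD changed 720 genes, 1423 without the fold limit, 1145 with sh3 alone and 279 to 797 on omission of single libraries. The direction of the members that were not called turned with the hairpin, to -0.082 for *Ermap* with sh2 alone and to 0.048 for *Rhag* and 0.011 for *Cd47* with sh3 alone. With sh2 alone only *Gypc* stayed past the limits, since *Rhd*, *Kel* and *Icam4* were at 0.43, 0.43 and 0.49. *Irf2bp2* KD changed 2778 genes and 5810 without the fold limit, when *Ermap* was called too. The *Gfi1b* count of 0 became 47 with DESeq2 and 411 with no filter, where 6 of the members were called and *Icam4* was not, and 0 to 3148 when a library was left out. *Gypc* then ranged from -0.025 to 1.95. MEL induction changed 3187 genes and 1522 to 3369 when a library was left out. The *Kdm1a* KD count and its members kept their side of the limit with a prior count of 0.5.

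The count of genes that differ between *Cbfa2t3* and *Irf2bp2* KD went from 413 to 1835 when only these tables were fitted. This fit and the next were chosen after seeing the data. Without the library labelled *Gfi1b* KD replicate 1 the counts were 1576 (from 576, *Cbfa2t3* minus *Gfi1b*) and 3036 (from 1753, *Irf2bp2* minus *Gfi1b*), and the differences turned for *Gypc* (1.11), *Rhd* (0.076) and *Kel* (0.038) in the former and for *Rhag* (0.49), *Rhd* (1.36), *Kel* (0.30) and *Ermap* (0.040) in the latter. The cause was not tested. The number of members with a site within 20 kb fell from 7 to 3 with sites at or above the median fold.

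Replicate numbers are shared between groups, but only 2 per group, and the correlations of replicate 1 less replicate 2 were 0.12 to 0.25 in the *Cbfa2t3* table, 0.03 for *Irf2bp2*, 0.00 for *Gfi1b* and 0.20 for induction, and the labels do not say what a number marks. All 3 values of the *Cbfa2t3* table and that of induction exceeded 0.1, which hints at a shared replicate effect in both. With the block the *Cbfa2t3* table called 632 genes (from 720) and the same 4 members. Induction called 3916 genes with the block (from 3187) and the same members. With the replicate number as a block, *Gypc* in *Cbfa2t3* minus *Gfi1b* was 0.13 (from -0.14), and the other 55 of 56 member values kept their direction and their call. *Cd47* in *Irf2bp2* KD had an adjusted p of 0.0483 with the block (from 0.0626), still under the fold limit.

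Each group holds 1 or 2 libraries (4 for the pooled *Cbfa2t3* KD), so a call rests on few residual degrees of freedom. The *Gfi1b* and induction libraries were counted at 9929311 to 19623105 reads, with wider errors than the shRNA libraries.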
